A study of Mus musculus with 6 samples.

Results

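The ATF4 amino-acid stress response was followed here through 10 genes, the transcription factor Atf4 and 9 genes tied to it: Ddit3, Trib3, Chac1, Asns, Sesn2, Ppp1r15a, Atf5, Psat1 and Phgdh. They were taken by symbol from tables of 54532 genes. Where a symbol had several entries, the entry with the highest mean was kept, which mattered for Ddit3 alone, whose other entry held 0 reads. All 10 passed the filter of a mean of at least 1 FPKM (fragments or reads per kilobase of gene length, scaled to library depth), as did 9943 genes in all. The genes were chosen by their levels in siCXCR4 against siNC, the contrast described below: Atf4, Ddit3, Trib3, Chac1, Asns, Sesn2 and Ppp1r15a had been selected on higher FPKM in the siCXCR4 libraries of these same data. Their values are therefore a description of these libraries, with no test of the difference.

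ATF4 is a basic leucine zipper transcription factor whose protein is made when the initiation factor eIF2 is phosphorylated on its alpha subunit. The kinases GCN2 (amino acid shortage), PERK (stress of the endoplasmic reticulum), PKR (double-stranded RNA) and HRI (heme and mitochondrial stress) set that mark, and translation then passes over upstream reading frames of the Atf4 mRNA to the coding frame. ATF4, with partners of the C/EBP family, turns on genes for amino acid synthesis and uptake, and also genes that brake the response. In macrophages this program meets the demands of cytokine synthesis and of amino acid use after bacterial stimulation.

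RNA was sequenced from macrophages that had been derived from the bone marrow of C57BL/6 mice. Cells carried either a small interfering RNA against Cxcr4 (siCXCR4) or a negative-control siRNA (siNC), and every sample had received lipopolysaccharide (LPS), the bacterial ligand of TLR4, at 100 ng/ml for 12 hours; samples without LPS were not analysed here. The value columns of the tables are headed wt and mko, not by siRNA, and no source used here explains those headings. Groups follow the labels, so siCXCR4 and siNC stand throughout for the libraries so labelled. The labels name 3 samples per group, but the siNC replicate 3 table held counts equal in all 19072 genes with reads to the reads of siNC replicate 2. The pair, whose reads did not differ in any gene, entered as 1 sample, which left 2 siNC and 3 siCXCR4 libraries. The siRNA sequences and the sex and age of the mice are not stated in the labels. The labels do not tie replicates to separate animals or cultures, so standard errors and p-values cover the spread among these samples alone, and that spread may be technical.

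Libraries held 18890751 to 21780840 reads in genes. Over all genes they did not group by label: by the mean chi-square per gene between their reads (genes with at least 10 reads in a pair), siCXCR4 replicate 2 was nearer to siNC replicates 1 and 2 (4.199 and 5.45) than to siCXCR4 replicates 1 and 3 (6.35 and 7.95). Without it, the median log2 fold change of the 10 genes described here was 0.16, against 0.17 with it. Cxcr4, the siRNA target and receptor of the chemokine CXCL12, was at 41.3 and 42.1 FPKM in siNC and at 31.1, 36.2 and 32.7 FPKM in siCXCR4, so its mRNA was lower in siCXCR4 but still present. The 10 macrophage markers, among them Lyz2 and Csf1r, were all measured and summed to 4501 to 4740 FPKM in siNC and 4398 to 4740 FPKM in siCXCR4. The sum of the 7 neutrophil markers did separate the groups, at 73.5 to 76.3 FPKM in siNC and 52.7 to 62.3 FPKM in siCXCR4. Of these markers 3 passed the filter, S100a9 was the most abundant at a mean of 46.2 FPKM, and Retnlg was at 0 in every library. T cell, B cell, mast cell, erythroid and stromal marker lists summed to between 0.0191 and 1.23 FPKM, with Mcpt4 and Hbb-bs at 0. Of these the T cell sum also separated the groups, at 0.768 to 0.817 FPKM in siNC and 0.998 to 1.23 FPKM in siCXCR4. However, 0 of its 5 markers passed the filter, and Lck was the most abundant at a mean of 0.925 FPKM. Dendritic cell markers summed to 4.01 to 4.86 FPKM (Siglech at 0), endothelial markers to 6.23 to 7.77 FPKM and osteoclast markers to 345 to 378 FPKM, most of it Acp5, which macrophages also express; none of these separated the groups. In bulk RNA, fewer cells of a type and less RNA per cell cannot be told apart, and the part of the neutrophil and T cell markers in the values below was not tested.

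Sequence near the start sites was not read to choose the genes, but they were listed as genes of the ATF4 response. The share of them with a binding element of ATF4 is therefore a description, not independent of how the list was made. The C/EBP-ATF response element, to which ATF4 binds with a C/EBP partner, was searched as TGATGNAAN on both strands of RefSeq promoter windows (GRCm38.p6) that run from 250 bases before each start to 50 bases from it. All 10 genes matched a window, with 12 windows in all. Asns, Chac1 and Trib3 held the element, 3 of 10 genes (30%), against 202 of 7328 genes tested that had a window (2.76%) and 1215 of 27025 genes with any window (4.50%). The stretches that hold it are printed 5′ to 3′ on the gene's strand with the element in capitals; in Chac1 and Trib3 it lies on the opposite strand and so reads in reverse complement. The Asns stretch is chr6:7693210-7693309 (minus strand), Chac1 is chr2:119351018-119351137 (plus strand) and Trib3 is chr2:152344028-152344057 (minus strand). In Trib3 the element starts 13 bases downstream of the first transcribed base of RefSeq. The gene ends in the files differ, at 152344032 for Trib3 and 7693254 for Asns. By those, the Trib3 element (152344039 to 152344047) lies upstream of the gene and the Asns element (7693224 to 7693232) inside it.
Asns: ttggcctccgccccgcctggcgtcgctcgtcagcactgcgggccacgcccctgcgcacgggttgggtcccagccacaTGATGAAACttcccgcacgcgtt
Chac1: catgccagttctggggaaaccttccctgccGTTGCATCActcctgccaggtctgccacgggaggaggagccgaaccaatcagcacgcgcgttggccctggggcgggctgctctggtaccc
Trib3: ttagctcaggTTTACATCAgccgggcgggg

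The longer endoplasmic reticulum stress element, searched for by its full consensus on both strands, was in 0 of the 10 genes' windows and in 11 of 7328 genes tested (0.150%). Ppp1r15a held a full cAMP response element, TGACGTCA, which reads the same on both strands and was looked for after the sequences had been seen; 270 of 7328 genes tested (3.68%) held it. It is shown in capitals because Ppp1r15a stood near the top of the differences described below, at chr7:45526269-45526357 on the minus strand.
Ppp1r15a: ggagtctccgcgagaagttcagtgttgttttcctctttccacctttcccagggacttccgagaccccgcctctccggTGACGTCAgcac
These matches are letters in a window, and elements farther away, introns included, were not searched.

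Upstream start codons, the feature by which stress-regulated mRNAs of this kind are known to be controlled, were counted in 1 principal GENCODE M21 transcript per gene. Ppp1r15a had 7 upstream ATG triplets in a 5′ untranslated region of 764 bases, Atf4 had 3 in 594 bases, and Ddit3 and Atf5 had 2 each. Asns, Sesn2 and Psat1 had 1, and Trib3, Chac1 and Phgdh had 0. Thus 7 of 10 genes had at least 1, against 4498 of 8920 genes tested (50.4%). A frame that runs past the main start codon, as in Atf4, Ppp1r15a, Atf5 and Psat1, was present in 4 of 10 genes, against 15.3% of genes tested. RNA levels do not show how often any of these frames is translated.

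In 9 of the 10 genes every siCXCR4 value lay above both siNC values, and Chac1 was the exception; this separation was seen in 17.9% of all 9943 genes tested, and the opposite one, with siCXCR4 below, in 9.92%. Because the contrast helped choose the genes, nothing is read from that count. The median log2 fold change (siCXCR4 minus siNC, of log2(FPKM + 1)) was 0.17 over the 10 genes and 0.01 over all genes tested. The differences were small in size, from 1.06-fold for Atf4 and Chac1 to 1.26-fold for Trib3 in mean FPKM. Separation did not follow the first selection: Chac1, one of its 7 genes, overlapped between the groups, while Atf5, Psat1 and Phgdh, which were outside it, did not. By limma over all genes, 0 of 9943 passed an adjusted p under 0.05, and at an unadjusted p under 0.05 siCXCR4 was higher in 577 (5.8%) and lower in 352 (3.54%). On whole reads the balance lay the other way, with 571 higher (4.46%) and 674 lower (5.27%) by edgeR and 343 higher (2.68%) and 363 lower (2.84%) by DESeq2, of 12794 genes. There edgeR called 17 genes (0.133%) at an adjusted p under 0.05 and DESeq2 33 (0.258%), and none of the 10 genes was among them.

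**Figure D1:**
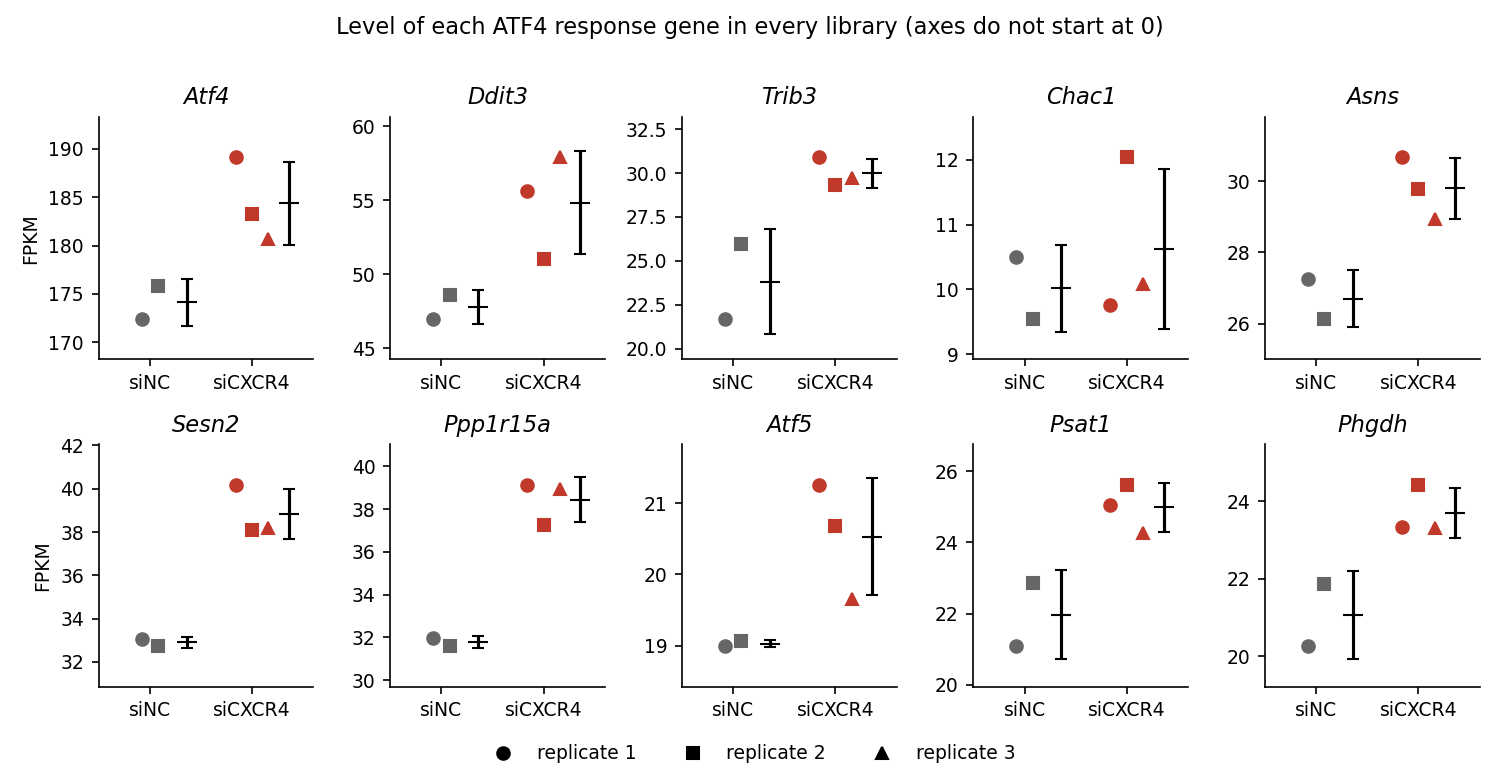
FPKM of each of the 10 genes (vertical axes, not from 0) in the 2 siNC libraries (grey) and 3 siCXCR4 libraries (red), with the replicate number as the symbol and the group mean ± SD as a bar beside the points. The groups are apart in every panel except that of Chac1, where siCXCR4 replicates 1 and 3 lie between the siNC values.

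Among the transcription factors, Atf4 itself (ENSMUSG00000042406, chromosome 15, 80255184 to 80257541, plus strand; all gene positions are given as in the files, in GRCm38 coordinates) was at 172 and 176 FPKM in siNC and at 189, 183 and 181 FPKM in siCXCR4. The nearest values of the groups were 4.88 FPKM apart, and the log2 fold change was 0.08 (SE 0.0496, 95% interval -0.04 to 0.20). The mRNA of the regulator thus stood higher in all 3 siCXCR4 libraries, by a margin whose interval includes 0.

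Ddit3 (chromosome 10, 127290774 to 127296288) encodes CHOP, a C/EBP-like factor that ATF4 induces and that is tied to cell death under lasting stress. It was at 47.0 and 48.6 FPKM in siNC and at 55.6, 51.0 and 57.9 FPKM in siCXCR4. The log2 fold change was 0.19 (SE 0.0646), and siCXCR4 replicate 2 lay nearer to siNC than the other siCXCR4 libraries did. Ddit3 overlaps Mars on the opposite strand, which averaged 1120 reads against 1818 for Ddit3 and had a log2 fold change of -0.01. No source here states whether counting used the strand, so reads of the overlap cannot be assigned.

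Atf5 (chromosome 7, 44812256 to 44816658), a relative of ATF4 with a similar upstream-frame control and a role in the mitochondrial stress response, was at 19.0 and 19.1 FPKM in siNC. In siCXCR4 it was at 21.3, 20.7 and 19.6 FPKM. The groups were apart by 0.586 FPKM, the smallest margin among the 9 separated genes, and the log2 fold change was 0.10 (SE 0.0529, 95% interval -0.02 to 0.23). Atf5 overlaps Nup62 on the opposite strand, a nuclear pore gene with more reads (2356 on average against 811) and a log2 fold change of 0.11. As for Ddit3, reads of the overlap cannot be assigned, and their part in the Atf5 difference was not tested.

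The genes that brake or shape the response had the larger differences. Trib3 (chromosome 2, 152337422 to 152344032), a pseudokinase that binds ATF4 and CHOP and dampens their activity, was at 21.7 and 25.9 FPKM in siNC and at 30.9, 29.3 and 29.7 FPKM in siCXCR4. Its siCXCR4 values were close together, whereas its siNC values differed by more than those of any other gene here in relation to their mean (coefficient of variation 12.2%, n = 2). The log2 fold change was 0.32 (SE 0.0784, 95% interval 0.14 to 0.51) and rested heavily on siNC replicate 1: it was 0.20 without that library and 0.45 without siNC replicate 2. Ranked from the highest log2 fold change down, with sign, it stood at place 109 of 9943 genes.

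Ppp1r15a (chromosome 7, 45522916 to 45526268) encodes GADD34, which brings a phosphatase to eIF2 and so ends the stress signal. It was at 32.0 and 31.6 FPKM in siNC and at 39.1, 37.2 and 38.9 FPKM in siCXCR4. Both groups were tight, with means of 31.8 ± 0.277 (SD, n = 2) and 38.4 ± 1.04 (SD, n = 3), and 5.26 FPKM separated their nearest values. The log2 fold change was 0.27 (SE 0.0483, 95% interval 0.15 to 0.38), at place 203 from the highest down.

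Sesn2 (chromosome 4, 132492032 to 132510501) encodes sestrin 2, a leucine-binding protein that restrains the growth kinase complex mTORC1. Its level was 33.1 and 32.7 FPKM in siNC and 40.2, 38.1 and 38.2 FPKM in siCXCR4. Like Ppp1r15a it had a wide margin for its spread, 5.03 FPKM, and its log2 fold change was 0.23 (SE 0.0490, 95% interval 0.12 to 0.35).

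The amino acid enzymes were higher by less. Asns (chromosome 6, 7675169 to 7693254), asparagine synthetase, was at 27.3 and 26.1 FPKM in siNC and at 30.7, 29.8 and 28.9 FPKM in siCXCR4, with a log2 fold change of 0.15 (SE 0.0509). Psat1 (chromosome 19, 15904678 to 15947337), a transaminase of serine synthesis, was at 21.1 and 22.9 FPKM in siNC and at 25.05, 25.6 and 24.3 FPKM in siCXCR4. Phgdh (chromosome 3, 98313170 to 98339990), which opens the same pathway, was at 20.3 and 21.9 FPKM in siNC and at 23.3, 24.4 and 23.3 FPKM in siCXCR4. The serine enzymes shared their order across libraries at both ends: siNC replicate 1 was the lowest and siCXCR4 replicate 2 the highest for each. Their log2 fold changes were 0.18 (SE 0.0559) for Psat1 and 0.16 (SE 0.0552) for Phgdh, and 0.12 and 0.11 without siNC replicate 1.

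Chac1 (chromosome 2, 119351229 to 119354381), which degrades glutathione and is known as a sensitive ATF4 target, did not follow the others. It was at 10.5 and 9.54 FPKM in siNC and at 9.76, 12.0 and 10.1 FPKM in siCXCR4. Only siCXCR4 replicate 2 lay above both siNC libraries, and the log2 fold change of 0.07 (SE 0.0940, 95% interval -0.15 to 0.30) was -0.01 without it, and 0.01 without siNC replicate 2. Chac1 also had the fewest reads, 308 to 382 per library. The exact Poisson 95% interval of siCXCR4 replicate 2, 10.9 to 13.3 FPKM, overlapped that of siNC replicate 1, 9.46 to 11.6 FPKM (counting error only: without molecular identifiers, reads may repeat 1 molecule).

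**Figure D2:**
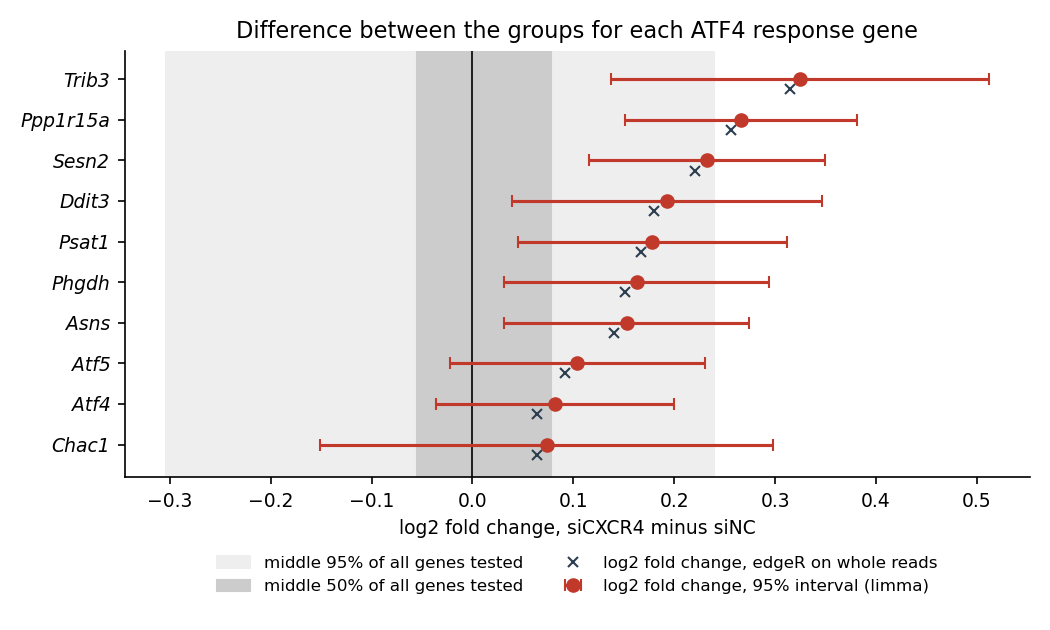
Log2 fold change of each gene, siCXCR4 minus siNC (horizontal axis), from limma with its 95% interval (red) and from edgeR on whole reads (crosses), over bands that hold the middle 50% and 95% of all 9943 genes tested. Trib3 at 0.32 and Ppp1r15a at 0.27 lie beyond the upper edge of the wider band, which is at 0.24, and the intervals of Atf5, Atf4 and Chac1 include 0.

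Seen by library, the mean of the 10 genes placed siCXCR4 replicate 2 with the other siCXCR4 libraries. The genes were chosen on this contrast, which favours that placement. The chi-square over all genes is another measure, so the placements are not compared. With each gene centred on its own mean over the 5 libraries, the mean of the 10 was -0.12 and -0.09 in siNC replicates 1 and 2, and 0.08, 0.08 and 0.05 in siCXCR4 replicates 1, 2 and 3, on the log2(FPKM + 1) scale. The median of all genes tested moved between -0.01 and 0.01 over the same libraries. siCXCR4 replicate 1 held the highest value for 6 genes, replicate 2 for 3 (Chac1, Psat1 and Phgdh) and replicate 3 for 1 (Ddit3). The lowest value was in siNC replicate 1 for 6 genes and in siNC replicate 2 for 4.

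**Figure D3:**
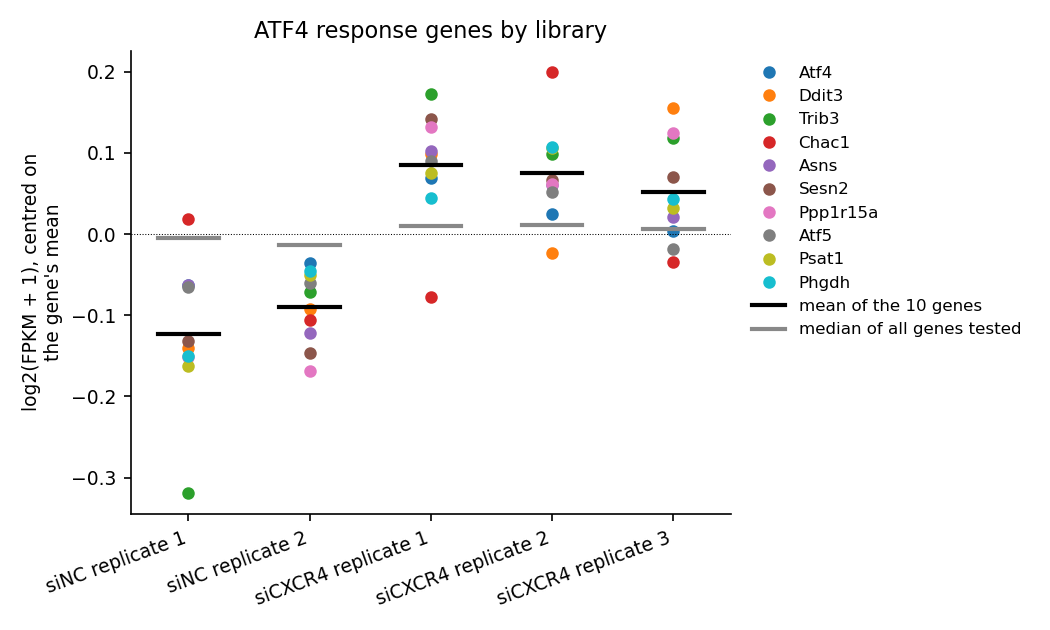
Level of each of the 10 genes in the 5 libraries, as log2(FPKM + 1) centred on the gene's mean, with the mean of the 10 genes (black line) and the median of all genes tested (grey line). The black lines lie at or below -0.09 in the siNC libraries and at or above 0.05 in the siCXCR4 libraries, and Chac1 is the point above 0 in siNC replicate 1 and the lowest point in siCXCR4 replicates 1 and 3.

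The scale of FPKM itself differed slightly between groups. Its denominator, worked back from the values, counted reads outside the listed genes, at 2.80% and 2.15% in siNC and at 0.00033%, 0.312% and 1.37% in siCXCR4. Scaled by TMM on whole reads, the log2 fold changes were a little smaller, for example 0.06 for Atf4, 0.18 for Ddit3 and 0.26 for Ppp1r15a. The same 9 genes stayed separated, against 12.7% of 12794 genes with that one-sided separation on that scale.

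Ratios within a library do not depend on its scale. Set against Atf4 in the same library, Trib3 was at 0.126 and 0.148 FPKM per FPKM of Atf4 in siNC and at 0.163, 0.160 and 0.165 in siCXCR4. Ppp1r15a was at 0.185 and 0.180 in siNC and at 0.207, 0.203 and 0.215 in siCXCR4, and Sesn2 at 0.192 and 0.186 against 0.212, 0.208 and 0.211. The mean ratio was 18.9% higher in siCXCR4 for Trib3, 14.2% for Ppp1r15a, 11.4% for Sesn2 and 8.43% for Ddit3. The order rests on single libraries: for Trib3 the excess was 10.2% without siNC replicate 1, below Ppp1r15a (16.1%) and Sesn2 (13.2%), and 29.2% without siNC replicate 2, and for Ddit3 it was 4.27% without siCXCR4 replicate 3. Asns and Psat1 also kept their groups apart as ratios, at 5.37% and 7.41% higher, or 2.20% for Asns without siNC replicate 2 and 4.21% for Psat1 without siNC replicate 1. Atf5, Phgdh and Chac1 did not, and the ratio of Chac1 differed by 0.201% (-6.75% to 6.29% with 1 library left out). Trib3, Ppp1r15a, Sesn2 and Ddit3 were among the genes first selected as higher in siCXCR4, so these ratios describe the libraries and test nothing. Overlap did not follow size: Phgdh overlapped at a mean excess of 6.28%, above that of Asns, which did not overlap.

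Spread between libraries was compared with the counting error that the reads alone would give. For Atf4, with 8161 to 9714 reads, counting error was 1.07% of the level, and the coefficient of variation of depth-scaled reads was 0.911% in siNC and 1.76% in siCXCR4. Ppp1r15a, at 2.16% counting error, varied by 1.35% and 2.95%, and Sesn2, at 1.97%, by 1.24% and 2.61%. Trib3 exceeded its counting error of 2.90% in siNC (12.2%) but not in siCXCR4 (2.49%), and Ddit3 the other way, with 1.93% in siNC and 6.84% in siCXCR4 at a counting error of 2.35%. Chac1, at 5.37%, varied by 7.19% and 11.5%. With 2 or 3 libraries, these coefficients are themselves rough.

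In level per length, Atf4 mRNA stood far above the rest, with a mean of 180.3 FPKM over the 5 libraries (range 172 to 189). Ddit3 followed at 52.0 FPKM (47.0 to 57.9). Sesn2 and Ppp1r15a, at 36.5 and 35.8 FPKM, had overlapping ranges, and Sesn2 was the higher in 4 of 5 libraries. Asns at 28.6 and Trib3 at 27.5 FPKM changed places between libraries, with Asns higher in 3 of 5. Psat1 (23.8), Phgdh (22.6) and Atf5 (19.9) kept that order in all 5 libraries although the ranges of neighbours overlapped. Chac1 was last at 10.4 FPKM, below the range of every other gene.

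Genes outside the 10 with the most similar profile were found by the root mean square difference between centred log2 values over the 5 libraries and the mean of the first 7 genes named above, among 5553 genes of at least 5 FPKM. The closest were Cdc42ep4, an effector of the GTPase CDC42 (difference 0.0084), Pole3, a histone-fold subunit of DNA polymerase epsilon (0.0098), Syngr2, a vesicle membrane protein (0.017), Tes, a focal adhesion protein (0.017), Lrrc8d, a volume-regulated anion channel subunit (0.017), and Ripk3, the kinase of necroptosis (0.018). Ripk3 was at 7.99 and 8.01 FPKM in siNC and at 9.21, 9.32 and 9.41 FPKM in siCXCR4, and Pole3 at 9.31 and 9.42 against 11.01, 10.87 and 10.95 FPKM. The 10 genes themselves lay 0.030 (Sesn2) to 0.12 (Chac1) from it, and 44 of the 5553 genes lay nearer than Sesn2. A gene with no change at all would lie 0.093 from this mean, nearer than Trib3 (0.10) and Chac1.

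Other genes of the pathway were taken from 7 lists by role, and by limma 0 members of any list passed the test over all genes. Upstream of ATF4, the eIF2 kinases, the phosphatase and the exchange factor eIF2B were not higher as a group. Of 17 genes, 5 were above 0, and the median log2 fold change was -0.0090. At an unadjusted p under 0.05, limma and DESeq2 had no gene in either direction, and edgeR had 1 lower and 0 higher. Ppp1r15b, the constitutive partner of the eIF2 phosphatase, was at 62.6 ± 1.10 FPKM in siNC (SD, n = 2) and 67.1 ± 0.931 in siCXCR4 (SD, n = 3). The kinase gene Eif2ak1 (HRI) was at 15.04 ± 0.0470 and 16.2 ± 0.300 FPKM, and Eif2b1, an eIF2B subunit, at 9.06 ± 0.500 and 9.89 ± 0.396 FPKM, while the adaptor Nck1 lay the other way at 8.69 ± 0.111 and 7.96 ± 0.290 FPKM. In all, 3 of the 17 genes were apart with siCXCR4 above and 2 with it below, against 17.9% and 9.92% of all genes tested. Without siNC replicate 1 the median of this list was 0.0029.

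Downstream, stress factors and effectors known as ATF4 targets had 15 of 18 tested genes above 0 and a median of 0.06, beside 56.4% above 0 and a median of 0.01 over all genes. At an unadjusted p below 0.05 there were 3, all of them higher. Atf3, an early stress factor also induced by LPS, was at 140 and 151 FPKM in siNC and at 191, 171 and 184 FPKM in siCXCR4, with a log2 fold change of 0.32 (SE 0.0677). DESeq2 called it with an adjusted p of 0.0143, and limma and edgeR did not (0.438 and 0.0721), within a range of 0.0143 to 0.924 over the alternatives. Gdf15, a secreted stress cytokine, was at 87.3 and 78.1 FPKM in siNC and at 100.8, 121 and 91.3 FPKM in siCXCR4. Bbc3, which encodes the pro-death protein PUMA, was at 6.24 ± 0.445 and 7.88 ± 0.977 FPKM, and the stress protein gene Nupr1 at 39.4 ± 0.722 and 42.1 ± 1.23 FPKM. The groups were apart, with siCXCR4 above, for each of these 4 and for Nfe2l1, a factor of proteasome gene control, at 112.5 and 110.4 FPKM in siNC and 112.8, 117.2 and 115.5 FPKM in siCXCR4. They were apart the other way for Cebpg, a C/EBP partner of ATF4, at 11.7 and 12.5 FPKM in siNC and 11.3, 11.5 and 11.03 FPKM in siCXCR4, and for Vegfa, the angiogenic growth factor, at 2.71 ± 0.145 and 2.43 ± 0.102 FPKM. These last 3 genes were named after their values were seen. In all, 5 of the 18 tested genes were apart with siCXCR4 above and 2 with it below, against 17.9% and 9.92% of all genes tested. Vldlr, Stc2, Fgf21 and Tnfrsf10b were under the filter, and Fgf21 was listed at 0.

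Among amino acid transporters, 6 of 9 tested genes were above 0 with a median of 0.04. By limma 1, higher in siCXCR4, passed an unadjusted p of 0.05, against 0 by edgeR and by DESeq2. Slc7a5, the leucine carrier LAT1, was at 14.1 and 14.7 FPKM in siNC and at 15.7, 16.1 and 15.5 FPKM in siCXCR4, and its partner Slc3a2 at 214 ± 1.29 and 224 ± 1.56 FPKM. Slc38a2, a neutral amino acid carrier, was at 16.6 ± 0.392 and 17.6 ± 0.539 FPKM. The cystine carrier Slc7a11 went against them, at 38.05 and 33.4 FPKM in siNC and 28.2, 38.5 and 27.7 FPKM in siCXCR4, with overlapping groups. Without siCXCR4 replicate 1 the median was 0.06, and Slc7a3, Slc6a9 and Slc43a1 were under the filter.

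The list of amino acid and one-carbon metabolism held enzymes and the mitochondrial folate carrier gene Slc25a32. Of its genes, 7 of 9 tested were above 0 with a median of 0.06. By limma 2, both higher, passed an unadjusted p of 0.05, against 1 by edgeR and 0 by DESeq2. The median rested on the siNC libraries: it was 0.0021 without siNC replicate 1 and 0.12 without siNC replicate 2. The former lies below 0.01, the median of all genes tested in the fit on all 5 libraries. The mitochondrial folate enzyme gene Mthfd2 was at 50.4 ± 0.456 FPKM in siNC and 54.5 ± 0.712 in siCXCR4, and Shmt2, which feeds it from serine, at 13.3 ± 0.458 and 15.1 ± 1.37 FPKM. Aldh18a1 of proline synthesis was at 10.8 ± 0.214 and 11.8 ± 0.250 FPKM and the transaminase gene Gpt2 at 4.75 ± 0.0295 and 5.27 ± 0.328 FPKM. These 4, named for their low p in this contrast, had siCXCR4 above siNC in every library. They were the only such genes among the 9 tested (44.4%), against 17.9% of all genes tested. Aldh1l2, Pycr1, Cth and Bcat1 were under the filter at less than 0.1 FPKM, and Cbs was listed at 0.

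Aminoacyl-tRNA synthetase genes, which load amino acids onto tRNAs and are known ATF4 targets, were listed with Xpot, a tRNA export gene. Of these 13 genes, 10 were above 0 with a median of 0.05. By limma there were 2 at an unadjusted p below 0.05, both higher, against 1 by edgeR and 0 by DESeq2. The 2 by limma were Gars, at 32.8 ± 1.06 FPKM in siNC and 36.4 ± 0.945 in siCXCR4, and Aars, at 42.4 ± 0.281 and 46.6 ± 1.61 FPKM. Cars (16.1 ± 0.255 and 17.6 ± 0.732 FPKM) and Nars (95.9 ± 0.378 and 102 ± 4.18 FPKM) were also apart. In this list 5 of 13 genes had siCXCR4 above siNC in every library, against 17.9% of all genes tested.

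The XBP1 and ATF6 branches of the unfolded protein response, which raise chaperones of the endoplasmic reticulum, did not show the same direction. Of 25 genes, 10 were above 0 and the median was -0.02, and 1 gene was lower and 0 were higher at an unadjusted p below 0.05 by limma. By edgeR and by DESeq2 on whole reads, 4 were lower and 0 higher, and 0 passed after adjustment. In FPKM, 4 of the 25 genes had siCXCR4 below siNC in every library and 2 had it above. Over all genes tested these shares were 9.92% below and 17.9% above. Sdf2l1, a chaperone cofactor, was at 44.5 and 42.1 FPKM in siNC and at 35.2, 40.8 and 32.3 FPKM in siCXCR4, and Calr, the chaperone calreticulin, at 296 ± 10.1 and 273 ± 13.6 FPKM. Sec61b, a subunit of the translocation channel, overlapped between groups (16.2 ± 2.44 and 13.4 ± 1.97 FPKM), and Syvn1, a ubiquitin ligase of protein disposal, was at 18.6 ± 1.18 and 20.5 ± 0.586 FPKM. The median of this list was 0.00067 without siNC replicate 1. Whether the lists differ from each other was not tested.

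Genes of amino acid sensing by mTORC1, on which sestrins act, had 13 of 21 members above 0 and a median of 0.03, with 1 gene on each side at an unadjusted p under 0.05. Sesn1, the sestrin controlled by p53 and FOXO factors, lay opposite to Sesn2, at 2.56 and 2.55 FPKM in siNC and 1.67, 2.09 and 1.86 FPKM in siCXCR4, with 142 to 225 reads per library. Its log2 fold change was -0.31 (SE 0.0825, adjusted p = 0.486 by limma). Rragc, a GTPase that brings mTORC1 to lysosomes, was at 50.9 and 54.0 FPKM in siNC and 59.4, 56.7 and 59.3 FPKM in siCXCR4. Flcn, a GTPase-activating protein for Rragc, was at 13.7 ± 1.55 and 15.01 ± 0.265 FPKM, and Wdr24, of the GATOR2 complex, at 5.41 ± 0.124 and 5.89 ± 0.215 FPKM. The median turned to -0.03 without siNC replicate 2, and Sesn3 and Castor1 were under the filter.

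**Figure D4:**
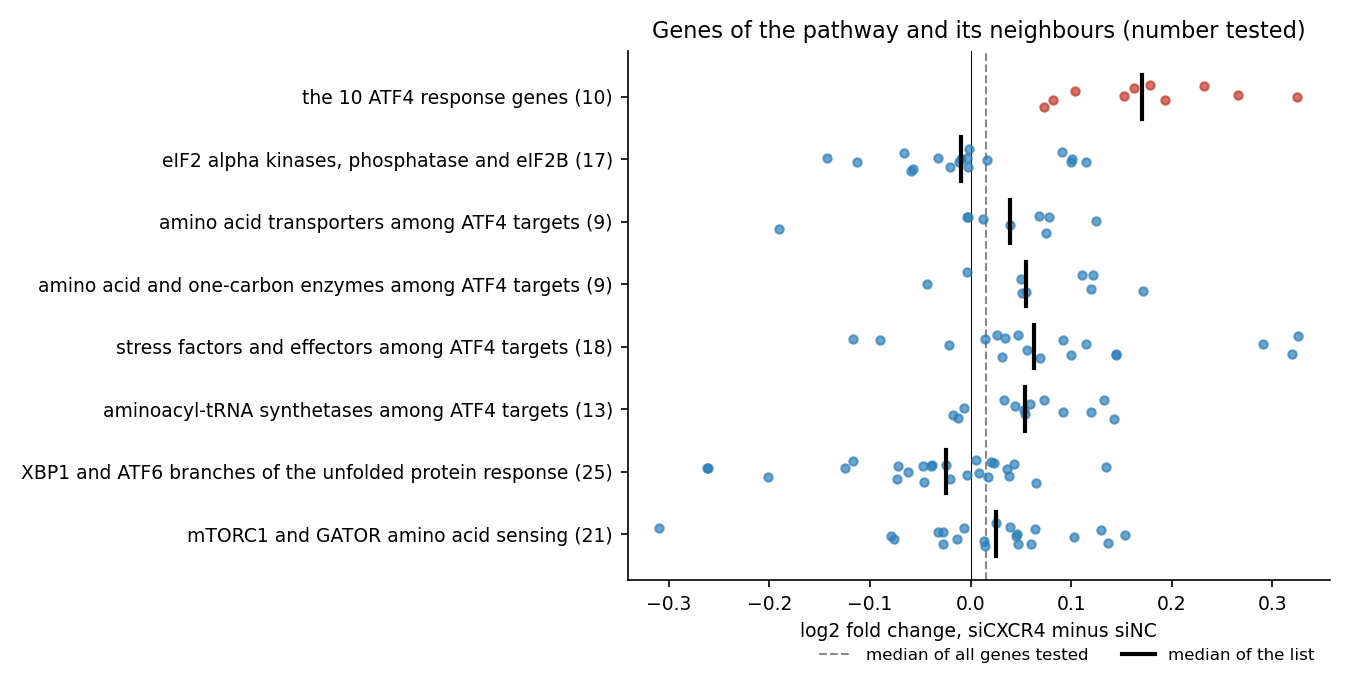
Log2 fold change, siCXCR4 minus siNC (horizontal axis), of every tested gene in the 10-gene set (red) and in 7 related lists (blue), with each list's median (black bar) and the median of all genes tested (dashed line). The 10 chosen genes have a median of 0.17, the lists of ATF4 targets have medians of 0.04 to 0.06 (the enzyme list 0.0021 without siNC replicate 1), and the eIF2 and the XBP1 and ATF6 lists lie at -0.0090 and -0.02.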

How the data were processed

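The authors deposited 1 table per sample: 5 hold FPKM (per the values, as the file headers name no unit; FPKM and RPKM cannot be told apart), and siNC replicate 3 holds whole read counts that the authors did not normalize. No label or header names an aligner, counting tool or strand setting (not given in the sources used here). Of builds, the submitters' processing notes name the build mm9, but 98.3% of 54495 genes shared with GENCODE M21 had the same GRCm38 position, as did all 10 genes described. Multiplied by gene length, 100% of values above 0 were whole multiples of a library's smallest step (tolerance 0.05), which gave whole reads.

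limma 3.58.1 in R 4.3.3 (trend, robust, two-sided, Benjamini-Hochberg) was fitted on log2(FPKM + 1) for 9943 genes averaging 1 FPKM or more over 5 distinct libraries. The design assumed FPKM in every table. edgeR 4.0.16 (TMM, robust quasi-likelihood) and DESeq2 1.42.0 were run on whole reads as alternatives. Simulated data with planted changes were used to test the limma and edgeR fits. The planted changes were larger than the differences of the 10 genes, so detection of differences that small was not tested. The genes and lists were chosen with earlier results of these data known. Named were the 10 genes, Cxcr4, up to 4 genes of lowest p per list, and the 6 genes of nearest profile; marker lists were named by their sums. The cAMP response element and the upstream start codons were added after the data were seen. Alternatives were pseudocount 0.1, no filter, a 5 FPKM filter, quantile normalization, median scaling, plain limma, summed entries, a replicate block, the repeated table as a replicate, and each library left out.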

Additional observations from a re-analysis of the deposited data

How the results depend on the processing

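Over 16 alternatives, 9 of the 10 genes stayed separated, or 10 without siNC replicate 1, and 159 of 160 log2 fold changes were above 0. The exception was Chac1 without siCXCR4 replicate 2 (-0.012). Only quantile normalization, median scaling, edgeR and DESeq2 could have undone the separation, as the other settings cannot. No filter, the 5 FPKM filter, plain limma and summed entries repeat the main log2 fold changes of these genes. The replicate block repeats those without siCXCR4 replicate 3. These counts are therefore no measure of how firm the differences are, in genes chosen on this contrast. The median of the 10 genes was 0.14 with quantile normalization and between 0.15 and 0.22 with 1 library left out. The number of genes past the threshold, 0 by limma, was 17 by edgeR, 33 by DESeq2, 6 with the repeated table counted as a siNC replicate, and 0 to 2 with 1 library left out (2 without siCXCR4 replicate 2). None of these fits called any of the 10 genes. With 1 library left out, list medians changed sign for the eIF2 list (-0.041 to 0.0029) and the XBP1 and ATF6 list (-0.037 to 0.00067), both positive without siNC replicate 1, and for the mTORC1 list (-0.028 to 0.059), negative without siNC replicate 2. They kept their sign for the enzymes (0.0021 without siNC replicate 1 to 0.12 without siNC replicate 2) and the transporters (0.027 to 0.062, highest without siCXCR4 replicate 1). A 5 FPKM filter, which tests fewer genes, gave 0.12 for the enzymes, 0.068 for the transporters and 0.052 for the mTORC1 list, and a pseudocount of 0.1 gave 0.084 for the enzymes. With a replicate block, 0 genes passed and the median of the 10 was 0.17; the differences between replicates 1 and 2 of each group correlated at -0.09 across 9943 genes, so the numbers were not taken to pair libraries. Fits without 1 siNC library assume that the lone one varies like the siCXCR4 libraries. The causes of these shifts were not tested. Depth limits Chac1 most, at 308 to 382 reads per library. The value of Trib3 fell to 0.20 without siNC replicate 1.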
